A study of Mus musculus with 22 samples.

Results

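Lamina-associated domains (LADs) mapped by DamID in primary mouse embryonic fibroblasts (MEFs) treated with the histone deacetylase inhibitor TSA were set against LADs of MEFs treated with BIX01294 or DZNep, which act on histone methylation. The comparison used 6 LAD lists of the 11 in the series, built from 12 of its 22 samples: 2 TSA lists, 2 BIX01294 lists and 2 DZNep lists, 1 of each from pup 1.8 and 1 of each from pup x17. BIX01294 and DZNep are called the methylation inhibitors here, and their 4 lists the inhibitor lists. The members described are the stretches of chromosomes 1 to 19 called LAD in all 4 inhibitor lists and in neither TSA list, of which there were 1165 (missing under TSA), and those called in both TSA lists and in no inhibitor list, of which there were 198 (called under TSA only). No untreated list took part in choosing them. All cells were C57bl/6 MEFs from e13.5 embryos, grown for at most 5 passages. The other 5 lists, used only to describe the chosen stretches, came from untreated MEFs of pups 1.5, 1.8 and x17 (WT) and from MEFs of pups 1.5 and x17 infected with hairpins against lamin A/C. Each drug-treated culture received 1 drug for 18 to 24 h before the DamID virus, and cells were harvested at 60 h, counted from a step that the labels do not give. Doses are not given in the sources used here. Each list came from 1 pair of libraries, titled experiment and control and taken here as Dam-lamin B1 and Dam-only, from 1 culture of 1 pup, so a drug and its culture cannot be told apart within a pup, and n = 2 pups for each drug.

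LADs are long stretches of mostly silent chromatin that lie at the nuclear lamina, the protein mesh under the inner nuclear membrane. In DamID, a bacterial adenine methyltransferase fused to a lamin marks the DNA it touches in living cells, and unfused Dam gives the background of open chromatin. Histone deacetylases, which TSA blocks, remove acetyl groups and are linked to silencing at the lamina, among others through HDAC3 and its partners. BIX01294 inhibits G9a, which places methyl groups on lysine 9 of histone H3, and DZNep lowers histone methylation broadly and is best known for loss of EZH2, which methylates lysine 27. Both marks are found in LADs, the latter often near their borders.

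TSA lists held less LAD sequence than the inhibitor lists of the same pup, in every pair. In pup 1.8, LADs covered 1356 Mb under TSA, 1481 Mb under BIX01294 and 1440 Mb under DZNep. In pup x17 they covered 1302 Mb under TSA, 1536 Mb under BIX01294 and 1457 Mb under DZNep. Both TSA totals lay below all 4 inhibitor totals, and the groups did not overlap. The shortfall against the mean of both inhibitors was -104 Mb in pup 1.8 and -194 Mb in pup x17. Over the 6 lists the TSA mean was 1329 Mb ± 38.0 (SD, n = 2) and the inhibitor mean 1478 Mb ± 41.9 (SD, n = 4), a difference of -149 Mb. A two-sided exact permutation test over the 15 splits of the lists gave p = 0.0667, the smallest p this design allows, and p = 0.133 after Benjamini-Hochberg adjustment over 4 list measures. With drugs exchanged only within a pup there are 9 arrangements, and the exact permutation p was 0.111, again the smallest possible.

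The number of LADs overlapped between the drugs. The lists held 2218 LADs (pup 1.8) and 2082 LADs (pup x17) under TSA, 2154 and 2139 under BIX01294, and 2132 and 2239 under DZNep, in the same order of pups. TSA was highest of the 3 drugs in pup 1.8 and lowest in pup x17. The mean difference was -16 LADs (exact permutation p = 0.933, adjusted 0.933). It depended on the processing. With the lists as deposited, without joining and without the 100 kb minimum, it was -1948 intervals (exact permutation p = 0.133). Both TSA lists were then below all inhibitor lists. With gaps under 50 kb joined the difference turned to 104 more LADs under TSA (exact permutation p = 0.0667).

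Long domains made up a smaller part of the LAD length in both TSA lists. LADs of 1 Mb or more carried 51.4% (pup 1.8) and 54.6% (pup x17) of the length under TSA, 56.7% and 60.1% under BIX01294, and 58.3% and 57.5% under DZNep. Both TSA values were below all inhibitor values, and the mean difference was -5.13 percentage points (exact permutation p = 0.0667, adjusted 0.133). The median LAD was 334 kb and 330 kb under TSA, 381 kb and 359 kb under BIX01294, and 354 kb and 320 kb under DZNep. TSA was shorter in 3 of 4 same-pup pairs, but the ranges overlapped (difference -21.6 kb, exact permutation p = 0.333, adjusted 0.444). With the lists as deposited the median difference turned to 26.2 kb longer under TSA. The difference in the share in long LADs depended on the processing. It was -0.785 points with the lists as deposited (exact permutation p = 0.733), which have neither the joining nor the 100 kb minimum. With gaps under 50 kb joined it was -7.75 points. Blocks of 1 Mb or more shared by all 4 inhibitor lists lay in 2 or more separate TSA LADs in 92 of 336 cases in pup 1.8 and 77 of 336 in pup x17. Blocks of that size shared by both TSA lists lay in 2 or more inhibitor LADs in 19 to 52 of 312 cases. The first blocks are shared by 4 lists and the second by 2, so the counts are not symmetric. They were not made between the inhibitors or with other joining.

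**Figure D1:**
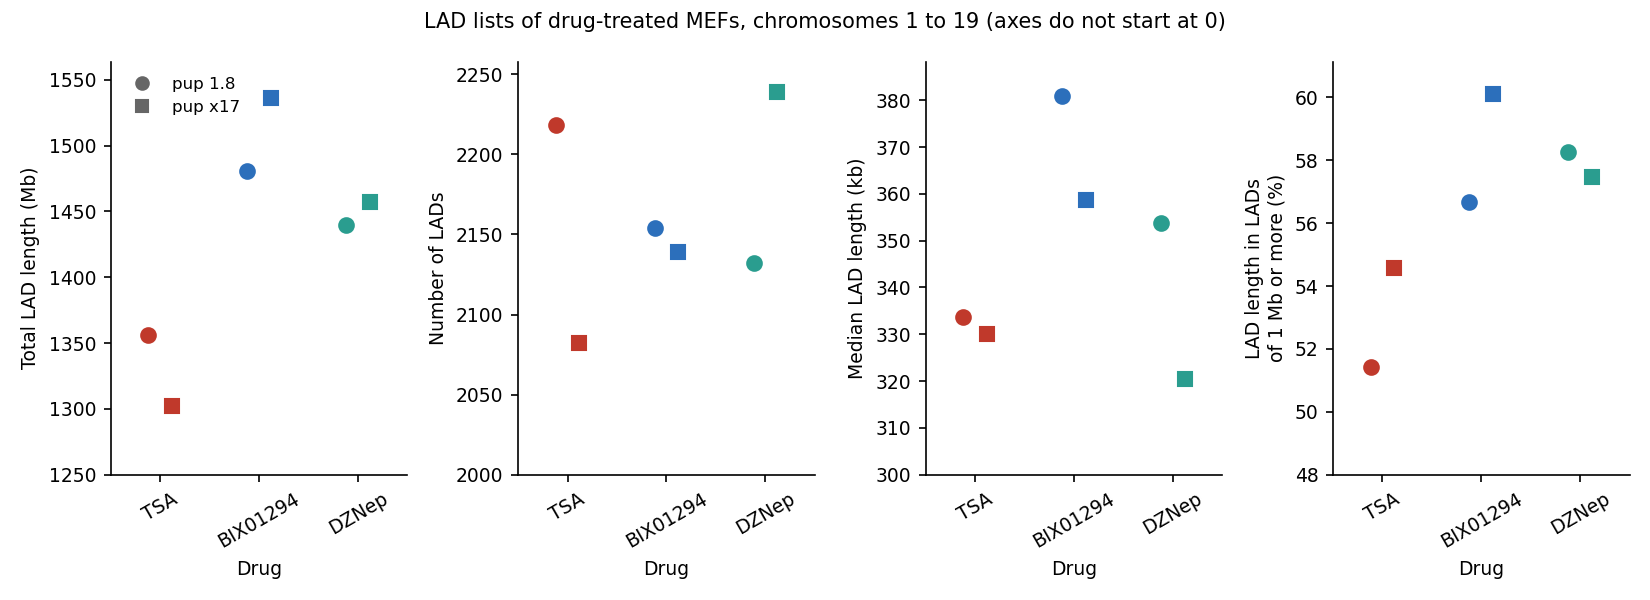
Total LAD length (Mb), number of LADs, median LAD length (kb) and share of LAD length in LADs of 1 Mb or more (%), for each drug on the x axis. Each point is 1 list, circles for pup 1.8 and squares for pup x17. The TSA points sit below all others for total length (1302 and 1356 Mb) and for the share in long LADs (51.4% and 54.6%), and overlap with the others for median length. For number, TSA of pup x17 (2082) is the lowest point and TSA of pup 1.8 (2218) lies among the others.

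Overlap was lower between TSA and an inhibitor of a pup than between its 2 inhibitors. The Jaccard index, the bases in both of a pair of lists divided by the bases in either, was 0.811 ± 0.00788 (SD, 4 pairs) between TSA and an inhibitor of the same pup. Between BIX01294 and DZNep of the same pup it was 0.889 in pup 1.8 and 0.887 in pup x17. The 2 TSA lists, from different pups, shared 0.836 with each other, below BIX01294 with BIX01294 (0.879) and DZNep with DZNep (0.883). These pairs share lists, so the spread is a description and was not tested.

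Bases held by all 4 inhibitor lists, 1306 Mb in all, were mostly kept under TSA: 87.5% were in both TSA lists, 7.63% in 1 and 4.84% in neither. The last share is the missing length, 63.2 Mb. Bases held by fewer inhibitor lists were less often in a TSA list, with 39.7% in neither TSA list for bases in 3 inhibitor lists, 55.5% for bases in 2 and 71.9% for bases in 1. In the opposite direction, 9.14 Mb were called under TSA only, 0.755% of the 1210 Mb shared by both TSA lists. Both sums rested on the agreement of the TSA lists: without the TSA list of pup 1.8, 118 Mb were missing and 18.7 Mb were called under TSA only, and without that of pup x17, 108 Mb and 43.0 Mb. The rule asks for agreement of 4 lists against 2 on one side and of 2 lists against 4 on the other, so these sums are not symmetric. Within a single pup, where the rule is 2 lists against 1, 144 Mb (10.5% of the length shared by both inhibitors) were missing from TSA in pup 1.8 and 177 Mb (12.6%) in pup x17. The length called under TSA only was 64.0 Mb in pup 1.8 and 27.4 Mb in pup x17, so missing length was 2.24 times and 6.45 times as long as the opposite. Of the missing length of a pup, 44.0% in pup 1.8 and 35.8% in pup x17 was also missing in the other pup. For the length called under TSA only, the shared part was 14.3% and 33.4%.

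The excess of missing over added length was not seen between lists of equal total length. When each list was trimmed to the length of the shortest by dropping its shortest LADs, 35.4 Mb were missing under TSA and 39.8 Mb were called under TSA only, so the order of the sums turned. Equal lengths make the differences between any pair of lists balance, so this follows in large part from the trimming itself. The shortest LADs left were 257 to 389 kb in the inhibitor lists and 163 kb in the TSA list of pup 1.8, and the TSA list of pup x17 was not trimmed. The lists give no signal or read number, and whether library depth or enrichment differed between drugs was not tested.

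Each drug was then set in turn as the odd one out of its pup, by the same rule. The TSA list was the shortest of each pup, and a shorter list tends to lack more, so list length also enters these values. TSA lacked 144 Mb (pup 1.8) and 177 Mb (pup x17) that both other drugs held. BIX01294 lacked 21.4 Mb and 12.9 Mb, and DZNep lacked 39.9 Mb and 31.7 Mb. TSA lacked more than either inhibitor in both pups. The length found under 1 drug only did not follow that order: it was 64.0 Mb and 27.4 Mb under TSA, 66.6 Mb and 97.3 Mb under BIX01294, and 44.0 Mb and 37.3 Mb under DZNep.

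Most of the missing length was carried by its longer segments, and most segments were short. The 1165 segments had a median of 26.4 kb, and the longest was 588 kb. There were 246 segments of 100 kb or more, and these held 40.6 Mb, 64.3% of the missing length, whereas the 409 segments under 10 kb held 2.42%. The segments touched 1040 of the 2381 blocks shared by all 4 inhibitor lists (43.7%). The 198 segments called under TSA only were similar in shape, with a median of 16.6 kb, a longest of 405 kb and 40 segments of 100 kb or more that held 67.1% of the length.

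Missing length lay mainly at the edges of blocks and in whole blocks. A block is a run of bases shared by all 4 inhibitor lists, an edge segment reaches 1 end of it, and an interior segment reaches none. Edges made up 862 segments and 30.2 Mb (47.7% of the missing length), with a median of 11.4 kb. Whole blocks made up 199 segments and 26.8 Mb (42.4%), with a median of 118 kb, and they were 8.36% of all 2381 blocks. Interior segments made up 104 segments and 6.24 Mb (9.87%). Joining closes gaps under 25 kb inside a LAD, which limits short interior segments: 11 were 10 to 25 kb long, against 136 edges of that length. For 85 of the whole blocks (12.5 Mb), the LAD that held the block shared no base with a TSA LAD, in each of the 4 inhibitor lists. Edge segments lay on 776 blocks, at 1 end only in 690 and at both ends in 86, and neither side of the block was preferred (445 segments at the low-coordinate end and 417 at the high-coordinate end). Under TSA only, whole blocks carried more of the length (34 segments, 55.8%) than edges (143 segments, 34.3%), and these were 1.57% of the 2171 blocks shared by the TSA lists. Which of edges and whole blocks held more of the missing length depended on the setting. Whole blocks held 57.5% and edges 39.5% with LADs over 500 kb, and 47.6% and 38.9% with the lists as deposited. Whole blocks held 28.5% and edges 51.7% with gaps under 50 kb joined, and 18.1% and 65.4% after trimming to equal length.

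**Figure D2:**
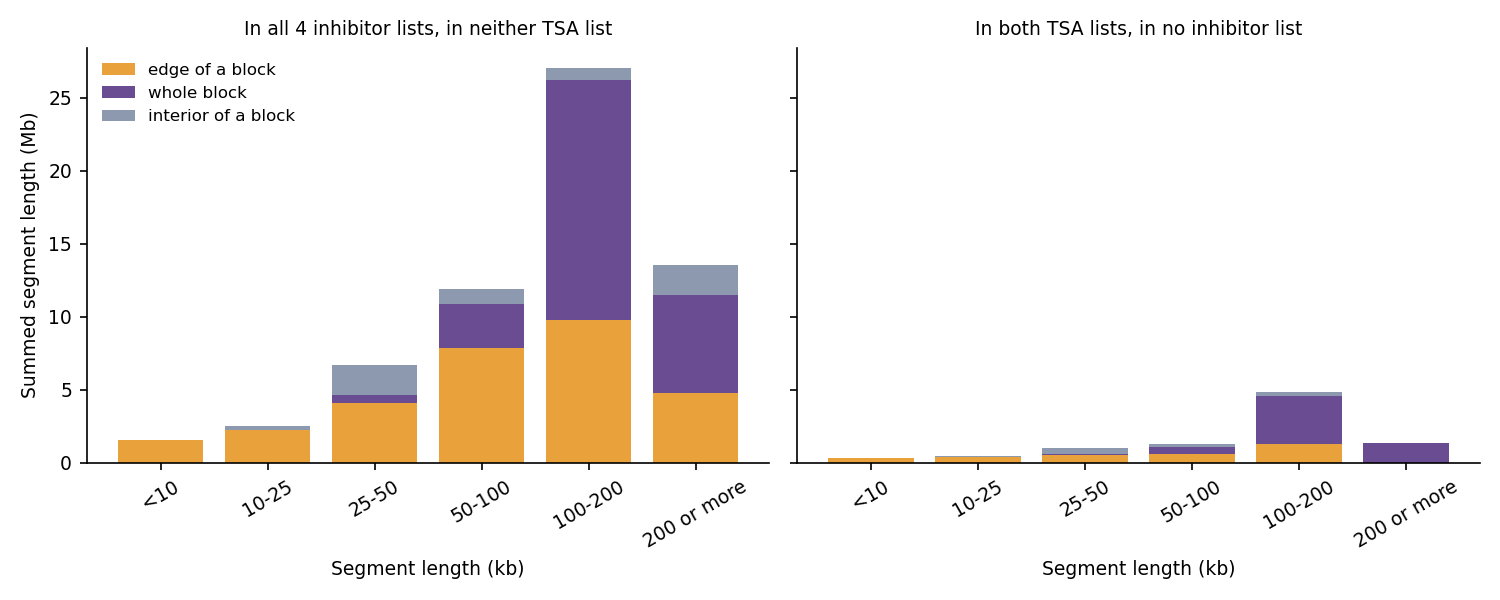
Summed length (Mb, y axis) of segments missing under TSA (left) and called under TSA only (right), by segment length (kb, x axis). Colours give the place in the block shared by the lists that hold the segment, and segments of 100 kb or more hold 64.3% and 67.1% of the length.

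The share missing was larger in shorter blocks, although blocks of 250 kb to 1 Mb held as much of the missing length (26.4 Mb) as blocks of 100 to 250 kb (25.7 Mb). Of the length of blocks of 100 to 250 kb, 17.1% was missing under TSA, against 5.45% for blocks of 250 kb to 1 Mb and 1.11% for blocks of 1 Mb or more. Blocks of 100 to 250 kb were wholly missing in 132 of 932 cases (14.2%), those of 250 kb to 1 Mb in 12 of 966, and those of 1 Mb or more in 0 of 336. Blocks under 100 kb, which are overlaps of longer LADs, were missing for 38.5% of their length. The length called under TSA only was likewise a smaller share of longer blocks, from 3.55% for blocks of 100 to 250 kb to 0.0680% for 1 Mb or more.

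Whole-block absence lay mostly in short blocks for every drug, at different levels. Of blocks of 100 to 250 kb shared by the other 2 drugs of a pup, 24.8% (pup 1.8) and 38.3% (pup x17) were wholly absent under TSA. The same share was 3.60% and 3.17% for BIX01294 and 7.58% and 5.91% for DZNep. Among blocks of 250 kb to 1 Mb, TSA lacked 4.01% and 5.33%, and neither inhibitor lacked more than 0.402%. Only 1 block of 1 Mb or more, from pup x17, was wholly absent from a list, and that list was TSA. The short end of the scale lies next to the length minimum: the longest joined intervals left out of the 6 lists were 99738 to 99993 bp long, and the shortest LADs kept were 100007 to 100091 bp.

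**Figure D3:**
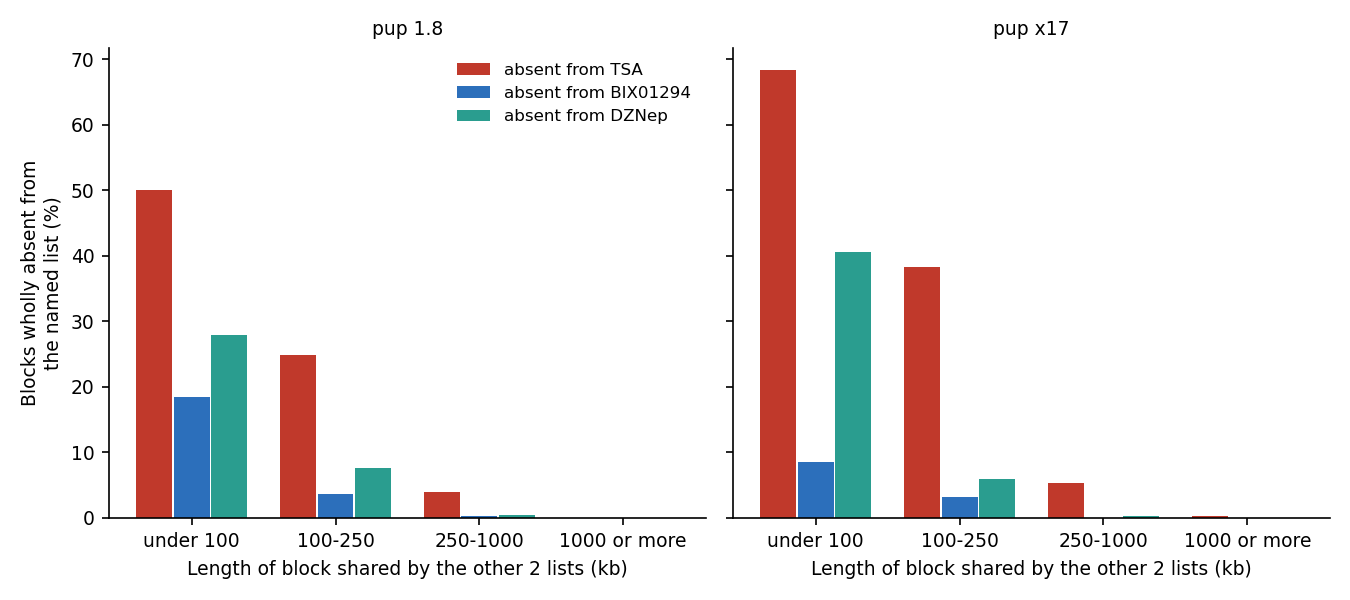
Share of blocks (%, y axis) held by 2 drugs of a pup and wholly absent from the list of the remaining drug, by block length (kb, x axis), for pup 1.8 (left) and pup x17 (right). At 100 to 250 kb the bar for TSA stands at 24.8% and 38.3%, above both inhibitors, and at 1 Mb or more the bars are at or near 0.

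Most missing bases were not called at all under TSA, even as short intervals. The deposited lists also hold intervals that were too short to be kept as LADs, and these covered 9.73% (pup 1.8) and 11.8% (pup x17) of the missing bases in the TSA lists. They covered 5.37% and 5.41% of all bases outside LADs in the same lists. Of the 199 whole blocks, 70 in pup 1.8 and 73 in pup x17 held such a short interval. TSA lists had fewer deposited intervals (6054 and 5720) than the inhibitor lists (6783 to 8883), and these were longer, with medians of 72.4 kb and 74.4 kb against 37.1 to 59.0 kb.

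Where TSA and inhibitor borders could be matched, the TSA border more often lay inside the inhibitor border than outside it. Borders of a TSA LAD had a border of the same kind within 25 kb in the inhibitor list of the same pup in 40.9% to 46.8% of cases, against 56.1% (pup 1.8) and 55.8% (pup x17) between BIX01294 and DZNep. Of TSA borders matched within 100 kb, the inhibitor LAD reached more than 5 kb farther out in 38.8% to 50.7% and fell more than 5 kb short in 17.8% to 28.8% over the 4 same-pup pairs. The median inhibitor border lay 0.89 to 5.33 kb outside the TSA border. Between BIX01294 and DZNep of a pup, the DZNep LAD was the shorter in 34.0% and 35.9% of matched borders and the longer in 26.8% and 22.8%. The 2 TSA lists, from different pups, matched each other within 25 kb at 47.9% of borders, little above the TSA and inhibitor pairs. Between them the LAD of pup x17 was the shorter in 38.3% of matched borders and the longer in 28.6%. A lean of that size thus also arose within TSA. Lists of different pups matched within 25 kb at 52.1% for BIX01294 and 56.8% for DZNep.

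The longest segment missing under TSA was a whole block of 588 kb at chr10:26744091-27331855 (mm9). All 4 inhibitor lists held it inside LADs of 598 kb to 2290 kb, and the nearest TSA LADs began 103 kb and 138 kb away. Short TSA intervals covered 0% (pup 1.8) and 19.6% (pup x17) of its bases. The next, 563 kb at chr10:15584929-16148009, was the edge of a block of 957 kb, and TSA LADs ended 0 kb and 52.9 kb from it. A whole block of 482 kb at chr10:97192420-97674400 matched LADs of 510 to 585 kb in the inhibitor lists. It stood apart, with the nearest TSA LAD 1436 kb away in one list and 1447 kb in the other, and no TSA interval of any length lay in it. An edge of 479 kb at chr1:11800557-12279187 took most of a block of 580 kb. Short TSA intervals covered 7.37% (pup 1.8) and 0% (pup x17) of that edge. The fifth was a whole block of 406 kb at chr10:29835777-30242054, where short TSA intervals covered 32.1% (pup 1.8) and 21.0% (pup x17) of the bases. The longest interior segment was 361 kb at chr4:30551158-30911966, with no TSA interval in it and a TSA LAD directly next to it in both lists.

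Among segments called under TSA only, the 5 longest were whole blocks. The longest was 405 kb at chr5:143117253-143522528, where the TSA LADs were 405 kb and 561 kb long and the nearest inhibitor LAD was at least 286 kb away. A block of 398 kb at chr2:27919183-28317129 had no inhibitor interval of any length. The others were 283 kb at chr4:56983698-57266858, 235 kb at chr5:3944014-4179205 and 184 kb at chr17:7533936-7718430. The block on chromosome 4 had its nearest inhibitor LAD 2234 kb away, whereas short inhibitor intervals covered up to 31.3% of the 235 kb block on chromosome 5. The longest edge was 173 kb at chr5:131852963-132025463 and the longest interior segment 116 kb at chr15:12710738-12826666. Genes in these intervals were not analysed here.

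**Figure D4:**
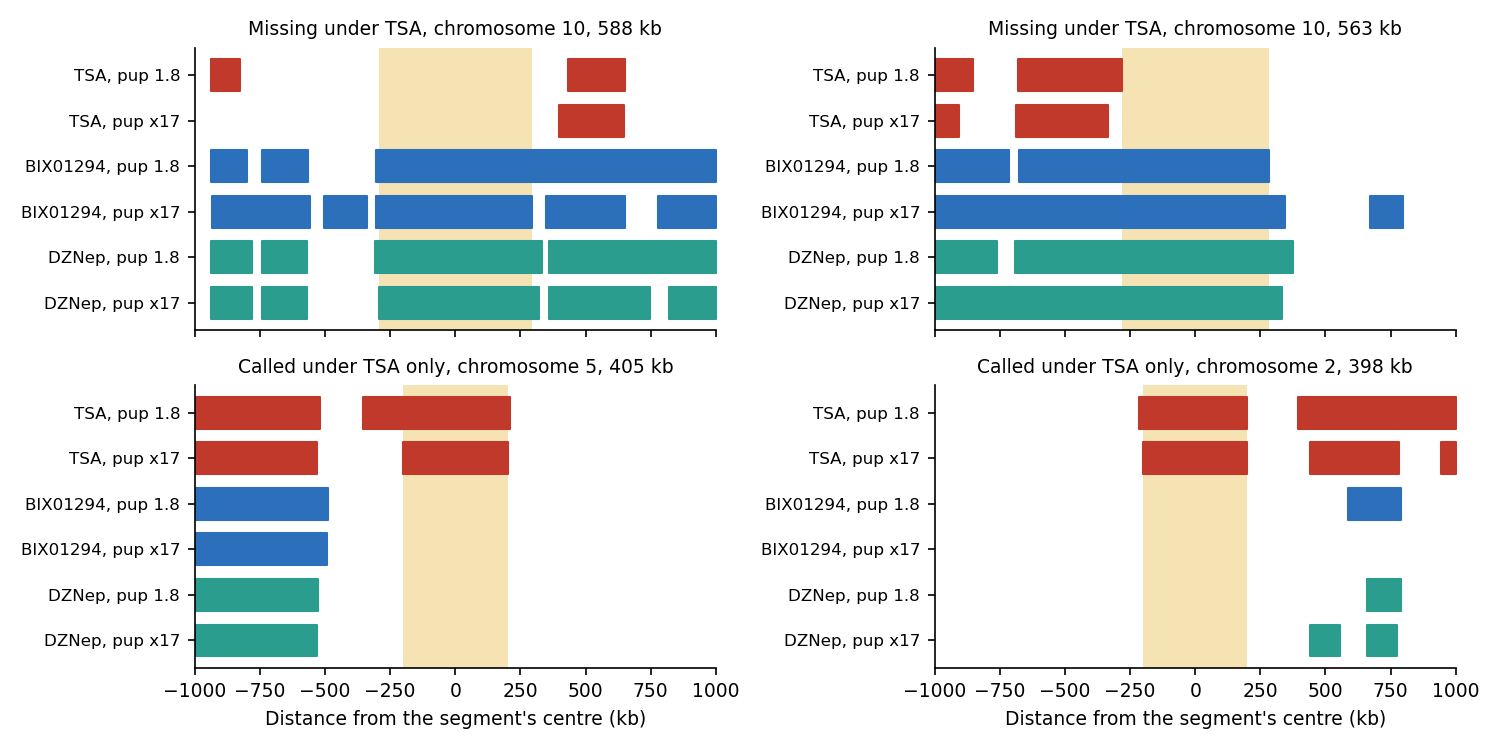
LADs (bars) in the 6 lists around the 2 longest segments missing under TSA (top) and the 2 longest called under TSA only (bottom), with distance from the segment's centre in kb on the x axis and 1 list per line. The shaded span is the segment, 588 kb and 563 kb on chromosome 10, 405 kb on chromosome 5 and 398 kb on chromosome 2, and it is covered by all lists of one side and none of the other.

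Every autosome had less LAD length under TSA than the mean of both inhibitors in both pups, 19 of 19 in each, though the difference on chromosome 11 in pup 1.8 was only -0.0204 Mb. Missing length was largest as a share of inhibitor blocks on chromosome 10 (8.03%), chromosome 13 (7.25%) and chromosome 18 (6.35%), and smallest on chromosome 7 (2.03%), chromosome 11 (2.31%) and chromosome 19 (2.83%). On chromosome 10, LADs covered 68.2 Mb (pup 1.8) and 64.2 Mb (pup x17) under TSA, 77.8 Mb and 81.6 Mb under BIX01294, and 74.4 Mb and 77.8 Mb under DZNep. On chromosome 7 the values were 94.7 Mb and 91.5 Mb under TSA, 98.2 Mb and 99.7 Mb under BIX01294, and 97.2 Mb and 98.2 Mb under DZNep. TSA was lowest on both chromosomes in both pups. Both were picked by their missing share in these same lists, so the wider gap on chromosome 10 restates that choice.

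The order of chromosomes was alike in both pups. Across the 19 chromosomes, the Spearman correlation between the pups was 0.921 for the share missing and 0.637 for the share called under TSA only, as a description, since the pups share the genome's LAD layout and the drugs. Chromosome 10 held 4 of the 5 longest missing segments, and its 3 longest summed to 1.63 Mb. Without these its share was 5.64%, below the full shares of chromosomes 13 and 18, but no such removal was made on other chromosomes. The share called under TSA only was highest on chromosome 5 (1.60%), chromosome 17 (1.27%) and chromosome 2 (1.26%), and lowest on chromosome 6 (0.214%), chromosome 3 (0.230%) and chromosome 10 (0.272%). Missing exceeded added length, as shares, on 19 of 19 chromosomes, a comparison that carries the asymmetric rule given above. Within pup 1.8, chromosome 11 went the other way, with 7.73% missing and 8.37% called under TSA only.

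**Figure D5:**
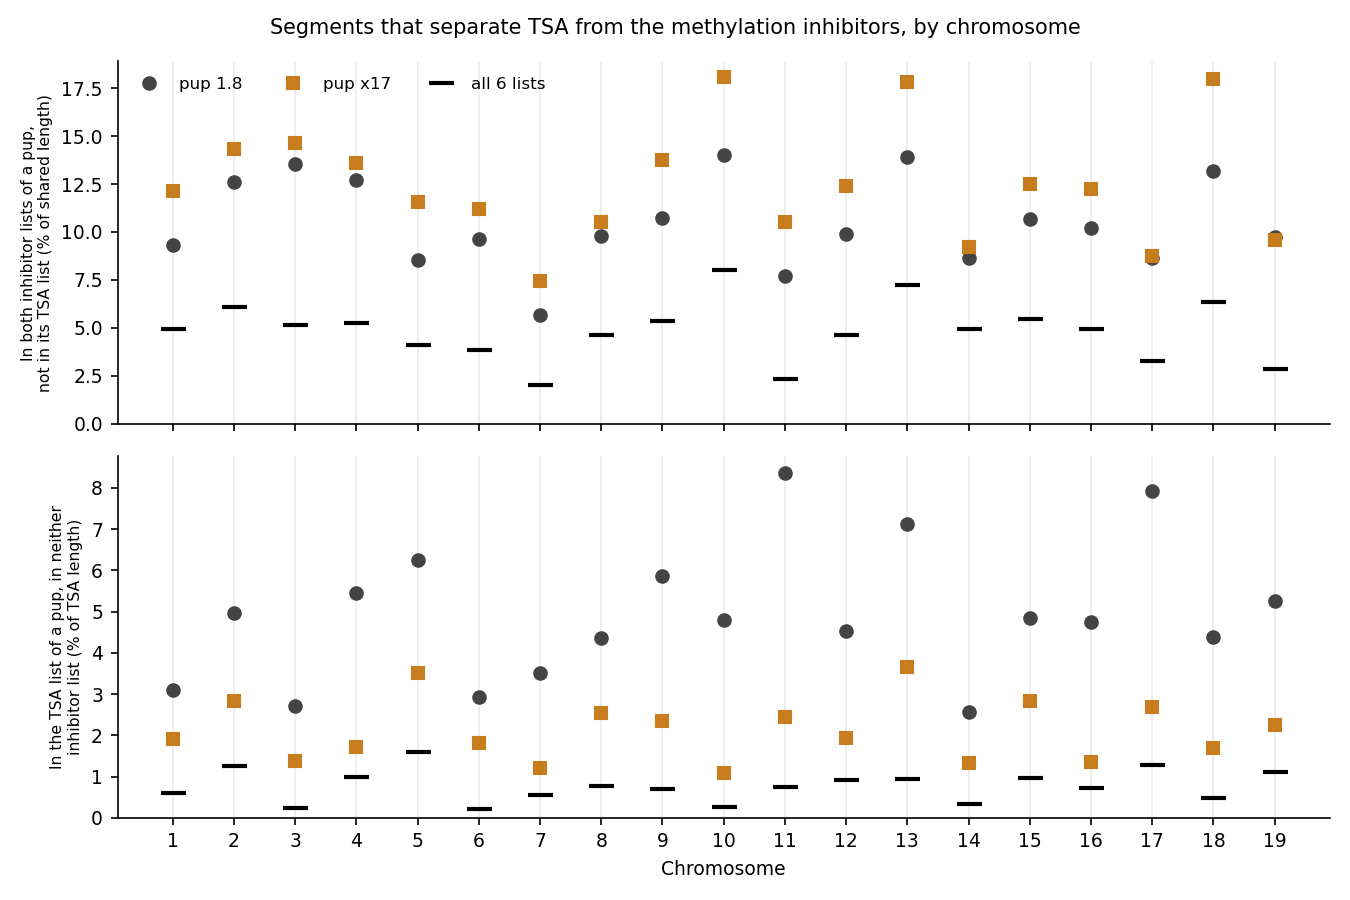
Share missing under TSA (top, % of the length shared by the inhibitor lists) and share called under TSA only (bottom, % of TSA length) for chromosomes 1 to 19 on the x axis, within pup 1.8 (circles), within pup x17 (squares) and over all 6 lists (dashes). Chromosomes 10, 13 and 18 stand highest in the upper panel in pup x17 and chromosome 7 lowest in both pups.

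Along chromosomes the missing length was spread but uneven. By position, 4.56% of block length was missing in the third nearest the low-coordinate end, 5.51% in the middle and 4.46% in the last. Of 505 windows of 5 Mb, 403 held some missing length, and 59 windows (11.7%) held 50% of it. The window with the most, chosen after its values were seen, was chr10:25000001-30000000, with 1.81 Mb missing. LADs there covered 1.16 Mb (pup 1.8) and 1.02 Mb (pup x17) under TSA, 3.49 Mb and 3.87 Mb under BIX01294, and 3.34 Mb and 3.30 Mb under DZNep. Untreated MEFs, which the rule did not use, had 2.49 Mb (pup 1.5), 3.49 Mb (pup 1.8) and 3.19 Mb (pup x17). TSA stood below every other list in this window.

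The 5 lists outside the comparison, 3 untreated (WT) and 2 with knockdown of lamin A/C, sided with the inhibitor lists at most missing bases. Of the missing length, 74.2% (pup 1.5), 92.3% (pup 1.8) and 84.9% (pup x17) lay in WT LADs, and 82.9% (pup 1.5) and 67.6% (pup x17) in LADs of the knockdown. The knockdown lists totalled 1431 Mb (pup 1.5) and 1339 Mb (pup x17), the latter below the 1356 Mb of TSA in pup 1.8. Cover was lowest in the shortest of the 5 lists, the knockdown of pup x17, and highest in the longest, WT of pup 1.8. The rest of the inhibitor blocks was covered at 94.0% to 99.1% in these lists, so missing segments were also covered less than the rest in lists without a drug. All 3 WT lists held 62.7% of the missing length and none held 1.13%. Of the length called under TSA only, 66.5% was in no WT list and 1.14% in all 3, and the WT list of pup 1.8, the longest of the WT lists (1507 Mb, against 1377 Mb for pup 1.5 and 1429 Mb for pup x17), held the most of it (24.4%), the whole 283 kb block on chromosome 4 included. The rest of the TSA blocks was covered at 95.3% (pup 1.5), 98.3% (pup 1.8) and 97.1% (pup x17) in the WT lists. Blocks of 100 to 250 kb that were wholly missing under TSA were covered at 67.6%, 92.7% and 80.3% in the WT lists of pups 1.5, 1.8 and x17, against 83.5%, 96.4% and 89.2% for the other 800 blocks of that size. Inhibitor blocks covered a median of 44.5% of the 500 kb on either side of them, against 37.9% for the others, with quartiles that overlapped (25.3% to 64.2% and 20.1% to 57.5%). These comparisons have no test, since segments of 1 list are not replicates.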

How the data were processed

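LAD lists from DamID-seq of MEFs were used as deposited by the authors, 1 per pair of Dam-lamin B1 and Dam-only libraries, with replicates not pooled. They hold only the start and end of intervals called from the ratio of the libraries, so the depth is unknown and the number of lists sets the precision. The build is mm9 per the submitters' processing notes, and the aligner is not given in the sources used here. In the deposited lists the smallest gap was 10001 to 10012 bp, and gaps under 25 kb and intervals of 100 kb or less were still present. On chromosomes 1 to 19, intervals less than 25 kb apart were joined and those over 100 kb kept, and positions count from 1. Libraries titled experiment and control were taken as Dam-lamin B1 and Dam-only, and the calling as by LADetector, after the methods of a paper that lists these data but does not describe the drug cultures. Samples were grouped by drug and pup from the labels.

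List measures were compared by two-sided exact permutation tests with Benjamini-Hochberg adjustment, and segments were described without a test, since the rule fixes their direction. Libraries of the same pup come from the same animal, which gives the pairing. The correlation of pup differences in LAD cover between drugs over 24724 bins was 0.0730 (TSA and BIX01294), 0.0790 (TSA and DZNep) and 0.168 (BIX01294 and DZNep). Named intervals are the 5 longest in each direction and the longest of each place in a block, and named chromosomes the 3 highest and 3 lowest. The members and lists were chosen with earlier results of these data known. Python 3.11.15, numpy 2.4.6 and matplotlib 3.10.9 were used, and the overlap code, tested on simulated data, gave 0 mismatches in 200 random sets of intervals. Alternatives were other joining and length limits, the lists as deposited, the replicate block, the X chromosome included, segments of 25 kb or longer only, each list left out, and equal total length. Genes and sequences were not analysed here, because no mm9 genome was used.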

Additional observations from a re-analysis of the deposited data

Results flagged for a closer look

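The number of LADs under TSA minus the mean of both methylation inhibitors was 75 in pup 1.8 and -107 in pup x17, with TSA above both inhibitors in the first pup and below both in the second. The difference between the pups was not tested, since each holds 1 TSA list.

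On the X chromosome, which the comparison did not use, 1.61% of the length shared by all 4 inhibitor lists was in neither TSA list, below each of the 19 autosomes. The missing length was 2.0 Mb and the length called under TSA only 1.76 Mb. LADs on X covered 133 Mb in both TSA lists, 134 Mb and 137 Mb under BIX01294, and 134 Mb in both DZNep lists.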

How the results depend on the processing

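The 9 main results gave 116 values under the alternatives. Of 48 values of the tested list measures, 4 changed sign, and since no p could pass 0.05 the tests say nothing about stability. Of 68 lengths and shares with no test, 19 moved beyond the SD between pups. That SD comes from 2 within-pup values, where fewer lists must agree. For the length called under TSA only it was 25.9 Mb, wider than the main value of 9.14 Mb, so the count is a loose guide. The difference in total LAD length was negative in 12 of 12 alternatives, with exact permutation p from 0.0667 to 0.2, and so was the share in LADs of 1 Mb or more (p from 0.0667 to 0.733); with 1 TSA list left out, no p below 0.2 is possible. The difference in LAD number rose to 104 with gaps under 50 kb joined (exact permutation p = 0.0667), and with lists left out in turn it ran from -84 to 52, above 0 without the TSA list or the DZNep list of pup x17. The difference in median length was 26.2 kb with the lists as deposited. In the replicate block, the mean of within-pup values, 160 Mb were missing (11.5% of the shared inhibitor length) and 45.7 Mb were called under TSA only, since fewer lists must agree. Its paired exact permutation tests cannot give p below 0.111. Whole-block and edge shares of the missing length were 28.5% and 51.7% with gaps under 50 kb joined and 57.5% and 39.5% with LADs over 500 kb, and the edge share was 38.9% as deposited and 53.6% with LADs over 200 kb. With lists left out in turn, missing length ran from 69.5 to 118 Mb (5.26% to 9.04%), at 118 Mb without the TSA list of pup 1.8 and 108 Mb without that of pup x17, and length called under TSA only from 9.88 to 43.0 Mb, the highest without the TSA list of pup x17. Lists trimmed to equal total length, an alternative chosen after seeing the data, gave 35.4 Mb missing (3.19%), 39.8 Mb under TSA only, and shares of 18.1% for whole blocks and 65.4% for edges. Apart from the effects of how many lists must agree and which LADs trimming drops, the cause was not tested.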
